A study of Homo sapiens with 9 samples.

Results

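Guides against 5 RING ligases of histone ubiquitin signalling, RNF8, RNF168, RNF169, RNF20 and RNF40, were followed through a pooled sgRNA screen for temozolomide response. They were chosen by the target gene named in the count table, which gave 50 guides, 10 per gene, of 11170 guides against 1117 genes. The screen was made in U251, an established human glioma line that stably expressed the sgRNAs. Cells were exposed for 72 hours to temozolomide, an alkylating drug used against glioma, and guides were counted from their DNA in 3 libraries each at 0, 200 and 1500 µM. These doses are in µM in the sample titles but in nM in the protocol text, so µM is used here as a name for a unit that is not settled. Each dose has replicates 1 to 3. The labels do not say whether a number marks a separate culture, so every p-value reflects library-to-library spread alone, possibly a technical one. The labels name neither the nuclease nor the vector, and a plasmid pool or a library from before treatment was not analysed here, so the share each guide had at the start is not known.

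RNF8 and RNF168 act in sequence at DNA double-strand breaks. RNF8 is a RING ligase that binds phosphorylated MDC1 at the break and, with the E2 enzyme UBE2N, builds ubiquitin chains there. RNF168 binds these chains and ubiquitinates histone H2A, the mark that recruits TP53BP1 and BRCA1 complexes, and RNF169, a relative of RNF168, binds the same mark and limits what else binds it. RNF20 and RNF40 form a heterodimer that uses the RAD6-type E2 enzymes UBE2A and UBE2B to attach a single ubiquitin to histone H2B, in transcribed chromatin and at breaks. Temozolomide methylates DNA, and breaks form when the lesions meet replication and mismatch repair.

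Libraries held 1852340 to 2790563 counts, with a mean per guide of 166 to 250. A count of 0 allows up to 3 counts in a library, which is 1.08 to 1.62 CPM (counts scaled by the library total), and such limits cover counting error only. A single guide, UBE2A.7, held between 0.155% of a library's counts (replicate 1 at 0 µM, exact Clopper-Pearson 95% interval 0.150 to 0.161%) and 18.6% (replicate 2 at 1500 µM, 18.5 to 18.6%). It lowers the CPM of every other guide where it is abundant, so gene sums are also given with it left out of the totals where a direction within a replicate number or an overlap between doses differs.

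The 5 genes stood in much the same order of level at every dose. RNF20 guides were the scarcest and RNF169 guides the most abundant. Summed over 10 guides, RNF20 had the lowest level of the 5 in 8 of 9 libraries, and RNF40 had it in replicate 1 at 0 µM. RNF169 had the highest level in 8 of 9 libraries, and RNF168 in replicate 1 at 0 µM. Levels compare the sums of different guide sequences and were not tested between genes.

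The summed RNF20 level was 154, 55.4 and 357 CPM in replicates 1, 2 and 3 at 0 µM, with a mean of 189 ± 154 CPM (SD, n = 3). At 200 µM it was 142, 125 and 296 CPM (mean 188 ± 94.2 CPM, SD, n = 3), and at 1500 µM it was 88.2, 84.5 and 422 CPM (mean 198 ± 194 CPM, SD, n = 3). Replicate 3 was the highest library at each dose, and the doses overlapped. By its mean at 0 µM RNF20 ranked 56th from the lowest of 1117 genes, and it lay below the median gene in all 9 libraries.

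RNF40, the partner of RNF20, had 108, 328 and 458 CPM at 0 µM (mean 298 ± 177 CPM, SD, n = 3). It had 298, 358 and 402 CPM at 200 µM (mean 352 ± 52.1 CPM, SD, n = 3) and 288, 348 and 526 CPM at 1500 µM (mean 387 ± 124 CPM, SD, n = 3). Replicate 1 at 0 µM stood below the other 8 libraries, which lay between 288 and 526 CPM. RNF40 ranked 107th from the lowest at 0 µM, and it too lay below the median gene in all 9 libraries.

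RNF8 had 546, 812 and 453 CPM at 0 µM (mean 604 ± 186 CPM, SD, n = 3). It had 380, 768 and 442 CPM at 200 µM (mean 530.0 ± 208 CPM, SD, n = 3) and 240.5, 715 and 479 CPM at 1500 µM (mean 478 ± 237 CPM, SD, n = 3). Replicate 2 was the highest library at every dose. RNF168 had 647, 684 and 538 CPM at 0 µM (mean 623 ± 75.7 CPM, SD, n = 3), 532, 841 and 525 CPM at 200 µM (mean 632 ± 180.3 CPM) and 470.2, 535 and 480.3 CPM at 1500 µM (mean 495 ± 35.1 CPM). The last 3 values lie below all 3 at 0 µM. That separation, which 2.06% of genes showed in the lower direction and 0.627% in the higher one, was lost when UBE2A.7 was left out of the totals: RNF168 then had 648, 692 and 540.2 CPM at 0 µM against 501, 657 and 505 CPM at 1500 µM, and 0.448% of genes showed it.

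RNF169 had 634, 1219 and 1646 CPM at 0 µM (mean 1166 ± 508 CPM, SD, n = 3). It had 860.0, 1049 and 1173 CPM at 200 µM (mean 1027 ± 158 CPM, SD, n = 3) and 697, 1004 and 1597 CPM at 1500 µM (mean 1100 ± 457 CPM, SD, n = 3). Replicate 3 was the highest and replicate 1 the lowest at every dose. In the order of means at 0 µM, RNF20, RNF40, RNF8, RNF168 and RNF169, neighbours differed by less than the larger of their SDs, except RNF40 and RNF8, and RNF168 and RNF169, whose means lay further apart than that.

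How many guides carried each of these sums differed between the genes. Of 90 values per gene (10 guides in 9 libraries), 37 were under 10 counts for RNF20, 30 for RNF8, 21 each for RNF168 and RNF40, and 3 for RNF169. The share over all guides of the table was 16.8%, against 41.1% for RNF20 and 3.33% for RNF169. At least as many low values as RNF20 were found in 99 of 1117 genes, and at least as many as RNF169 in 1008. Of the 50 guides 44 passed the filter for testing (at least 10 counts in at least 3 of 9 libraries), which was 88.0% against 92.5% of all guides.

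The 6 guides that did not pass belonged to RNF8, RNF168 and RNF20, and none of the 50 was at 0 in every library. RNF8.6 had 2 counts in replicate 2 at 0 µM and 0 elsewhere. RNF168.10 had 2, 9 and 3 counts in replicate 2 at 0, 200 and 1500 µM and 0 in the other 6 libraries. RNF8.4 was likewise seen in replicate 2 alone, with 2, 25 and 13 counts. RNF168.10 and RNF8.4 were thus found in replicate 2 at every dose and in no other library.

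The 3 scarcest RNF20 guides did not follow a replicate number in that way. RNF20.5 had 30 counts in replicate 3 at 200 µM and 0 in the other 8 libraries. RNF20.7 had 48 counts in that library, 4 in replicate 1 at 200 µM and 0 elsewhere. RNF20.10 was at 0 in all libraries at 0 and 200 µM, and had 10 and 17 counts in replicates 1 and 3 at 1500 µM.

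The most abundant guide of a gene, by its mean CPM, often held a large and uneven part of the sum. RNF40.10 had 27, 26 and 40 counts in replicate 1 at 0, 200 and 1500 µM and 88, 32 and 28 counts in replicate 2. In replicate 3 it had 530, 557 and 638 counts. It thus held 62.4% of RNF40 counts in replicate 3 at 0 µM (exact Clopper-Pearson interval 59.1 to 65.7%), but 3.16% in replicate 2 at 1500 µM (2.11 to 4.54%).

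RNF169.10 showed the same layout. It had 104, 129 and 293 counts in replicate 1 and 2, 22 and 15 counts in replicate 2 at 0, 200 and 1500 µM. Replicate 3 held 1281, 1193 and 1724 counts of it. RNF169.7, the most abundant RNF169 guide, was instead highest in replicate 2, with 1796, 1056 and 1448 counts, against 337, 577 and 849 in replicate 1 and 401, 500 and 312 in replicate 3.

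RNF8.1, the most abundant RNF8 guide, had 1008, 810 and 944 counts in replicate 2 at the 3 doses and at most 268 counts in replicate 3. In replicate 1 it had 682 counts at 0 µM, 150 at 200 µM and 210 at 1500 µM. It held 67.4% of RNF8 counts in that untreated library (exact Clopper-Pearson interval 64.4 to 70.3%). RNF8.8 had 0 counts in replicate 1 at every dose, 425, 207 and 281 counts in replicate 2, and 71, 170 and 36 counts in replicate 3.

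RNF168.6, the most abundant RNF168 guide, was spread more evenly, with 148, 363 and 342 counts in replicate 1, 437, 531 and 417 in replicate 2, and 324, 342 and 259 in replicate 3. RNF20.9, the most abundant RNF20 guide, had 152, 71 and 61 counts in replicate 1, 19, 61 and 21 in replicate 2, and 316, 272 and 324 in replicate 3. RNF20.6 and RNF20.8 were also highest in replicate 3, with 187, 157 and 284 counts and 107, 136 and 157 counts there. Neither exceeded 42 counts in any other library.

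The guides not described singly showed how wide the spread within a gene was. RNF8.10 was present throughout, with 121 to 472 counts, and RNF8.3 with 14 to 126 counts. RNF8.7 ran from 0 to 134 counts and RNF8.9 from 0 to 118, and RNF8.9 reached 42, 118 and 113 counts in replicate 2 but at most 12 elsewhere. Among RNF168 guides, RNF168.3 had 92 to 462 counts and RNF168.2 had 37 to 211, while RNF168.7 stayed at 15 counts or fewer. RNF168.8 had 77, 75 and 49 counts in replicate 2, 15 in replicate 3 at 1500 µM and 0 in the other 5 libraries.

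RNF169 guides were seen nearly everywhere. RNF169.2 had 137 to 730 counts, RNF169.3 had 15 to 312, RNF169.5 had 28 to 74 and RNF169.1 had 14 to 327, the last with its 3 highest values in replicate 3. RNF169.6 and RNF169.8 were each at 0 in a single library and otherwise reached 257 and 244 counts. RNF20.1 was the steadiest RNF20 guide, with 11 to 107 counts, and RNF20.4 had at most 17. RNF40.5 had its 3 highest values in replicate 2, with 40, 90 and 43 counts, and RNF40.6 ran from 0 to 123.

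The same layout was measured as shares of the sum of squares of log2(CPM + 1) over the 9 libraries. Replicate number took a median of 65.3% and dose 5.53% over the 44 tested guides. The medians over all 10337 tested guides were 73.0% and 7.03%. Replicate number took more than dose in 39 of the 44 guides, or 88.6%, against 90.3% of all tested guides. Among the gene sums the share of replicate number was 85.3% for RNF20, 84.1% for RNF169, 70.7% for RNF8, 57.4% for RNF40 and 43.5% for RNF168, with a median of 78.2% over all genes. The guides of these ligases thus shared the layout of the whole table. RNF168.4 was among the exceptions, with 65.1% for dose and 1.02% for replicate number.

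The comparison of 1500 with 0 µM asked whether cells with a guide against these ligases became more or less frequent at the highest dose. No member gene and no member guide passed. RNF40 guides had the highest values, with a log2 fold change of the summed counts of 0.49 ± 0.51 (SE) and a 95% interval of -0.68 to 1.66. RNF20, its partner, had 0.12 ± 0.80 (SE), with an interval of -1.71 to 1.95. RNF8 had -0.21 ± 0.47, RNF168 -0.23 ± 0.31 and RNF169 0.02 ± 0.42 (SE). These values came from edgeR's quasi-likelihood test on 3 against 3 libraries, and each adjusted p rounded to 1.00 (Benjamini-Hochberg over 1117 genes). The background was equally empty in this fit: 0% of genes and 0% of 10337 guides passed in either direction. An unadjusted p under 0.05 was found for 0.269% of genes and 0.203% of guides. None of the 5 genes and none of the 44 member guides was among them. With replicate number as a block these shares were 6.62% and 2.61% in edgeR. The log2 fold changes in that fit were -0.32 ± 0.26 for RNF8, -0.23 ± 0.18 for RNF168, 0.04 ± 0.14 for RNF169 and 0.11 ± 0.37 for RNF20 (SE). RNF40 with the block is given below. The fit without the block leaves the spread between replicate numbers in its error, so its empty result does not show absence of change.

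Most RNF40 guides had values above 0, though none passed. Of 10 guides 7 were higher at 1500 µM, while 43.9% of all tested guides were. The median over its guides was 0.98 on the log2 scale (SD 1.54 over guides), 8th from the highest of 1116 genes with at least 2 tested guides, against -0.08 over those genes. This rank is a description and carries no test. RNF40.7, for which the filter favoured a high value (below), is among the 7 guides and in the median.

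The RNF40 guide of lowest p, RNF40.7, had 2, 0 and 0 counts in replicates 1, 2 and 3 at 0 µM, 0, 0 and 15 at 200 µM, then 71, 3 and 40 at 1500 µM. It was thus almost absent without drug. It passed the filter for testing only through libraries with drug (15, 71 and 40 counts), and it was named for its low p. Both choices favoured a high ratio in advance, so the ratios below describe its counts and are no evidence of an effect. Over the pooled libraries its rate at 1500 µM was 46.0 times that at 0 µM, with an exact interval of 12.5 to 385 that covers counting error only. Single libraries moved this ratio. It was 27.8 without replicate 1 at 1500 µM, which held 71 of the 114 counts, and 28.4 without replicate 2 at 0 µM. Without replicate 1 at 0 µM, which held both untreated counts, the rate was at least 21.2-fold higher (against a floor of 3 counts over the group). Its full range with a counted base was 27.8 to 68.1. The fitted log2 fold change of 5.02 ± 2.31 (SE, unadjusted p = 0.0636, adjusted p rounding to 1.00, edgeR) depends on the prior count at such low counts.

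RNF40.3 had 10, 1 and 95 counts at 0 µM, 53, 30 and 205 at 200 µM, then 54, 64 and 156 at 1500 µM. It was higher than at 0 µM in all 3 replicate numbers at both doses. RNF40.1 was higher in all 3 numbers at 1500 µM only, with 17, 0 and 12 counts at 0 µM, 37, 0 and 50 at 200 µM, then 49, 17 and 18 at 1500 µM. Of the 44 member guides 6 were higher in all 3 numbers at 1500 µM, against 12.2% of all tested guides, and 2 were lower in all 3, against 11.6%. The other 3 that were higher were RNF20.2, RNF20.3 and RNF169.10, and the 2 that were lower were RNF168.1 and RNF169.4. RNF20.3, like RNF40.7, reached 10 counts only in libraries with drug, so the filter favoured higher values for both. These directions use totals that include UBE2A.7 and were not recomputed for guides without it. RNF168.1 had log2 ratios of -1.68, -0.14 and -0.05 in replicates 1, 2 and 3, so its place here is not settled. For gene sums, leaving UBE2A.7 out moved the shares higher and lower in all 3 from 6 and 23.5% to 19.9 and 8.15%.

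Other RNF40 guides pointed both ways. RNF40.9 went from 9 to 69 counts in replicate 1 but from 417 to 402 and from 92 to 106 counts in replicates 2 and 3. RNF40.2 went from 31 to 187 and from 0 to 7 counts in replicates 1 and 2, and from 27 to 26 in replicate 3. RNF40.8 went from 36 to 224 counts in replicate 1 but from 20 to 18 and from 8 to 5 counts in the others. Replicate 1 thus held the larger differences of these 3 guides. These are raw counts of libraries with unlike totals. As CPM with UBE2A.7 in the totals, the log2 ratio in replicate 2 was -0.19 for RNF40.9 and -0.26 for RNF40.8. Ratios of single guides without UBE2A.7 were not computed, so the direction of these 2 values is not settled. In replicate 3 RNF40.8 had -0.66.

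The same library set the size of the RNF40 sum. Within replicate numbers 1, 2 and 3 the log2 ratio of summed CPM (pseudocount 1) was 1.40, 0.09 and 0.20, so RNF40 was higher in 3 of 3, as were 6% of all genes. With UBE2A.7 left out of the totals the ratios were 1.49, 0.36 and 0.27, and the share of genes was 19.9%. With replicate number as a block the log2 fold change was 0.65 ± 0.27 (SE). Its unadjusted p was 0.0296 and its adjusted p 0.725 (edgeR). In that fit 6.62% of genes had an unadjusted p under 0.05, RNF40 alone among the 5. Without replicate 1 at 0 µM the unblocked value was 0.11, and with the block but without replicate 1 at both doses it was 0.29 (unadjusted p = 0.229, edgeR).

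RNF20 guides did not share a direction at 1500 µM. Its log2 ratios within replicate numbers were -0.80, 0.60 and 0.24, and the median over its 7 tested guides was 0.23, with guide values from -1.21 to 1.47. RNF20.2, its guide of lowest p, had 0, 45 and 6 counts at 0 µM, 44, 32 and 50 at 200 µM, then 37, 81 and 19 at 1500 µM. Its log2 fold change was 1.26 ± 1.78 (SE, unadjusted p = 0.502, edgeR). Without RNF20.9 the gene's log2 fold change was 0.45 ± 0.68 (SE).

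Among the ligases of the H2A mark, RNF8 had a negative value that no test called. The log2 ratios of RNF8 within replicate numbers 1, 2 and 3 were -1.180, -0.18 and 0.08, and -1.09, 0.09 and 0.15 with UBE2A.7 left out of the totals, so that replicate 2 turned direction. Of its 8 tested guides 5 were lower, with a median of -0.37, 1021st from the highest of 1116 genes. The 5 were RNF8.3 with -0.81 ± 0.94, RNF8.8 with -0.71 ± 2.17, RNF8.1 with -0.62 ± 1.06, RNF8.7 with -0.38 ± 1.57 and RNF8.10 with -0.37 ± 0.67 (SE). Without RNF8.1, the most abundant, the log2 fold change of the sum was -0.05 ± 0.45 (SE). RNF8.2, its guide of lowest p, had 48, 35 and 52 counts at 0 µM, 106, 17 and 183 at 200 µM, then 144, 22 and 264 at 1500 µM, with a log2 fold change of 1.26 ± 0.98 (SE, unadjusted p = 0.237, edgeR). It was higher in replicates 1 and 3 and lower in replicate 2.

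RNF168 was lower at 1500 µM in 3 of 3 replicate numbers, with log2 ratios of -0.46, -0.35 and -0.16. This held for 23.5% of genes. With UBE2A.7 left out of the totals the ratios were -0.37, -0.07 and -0.10, and 8.15% of genes were lower in all 3. RNF168.1 had 641, 213 and 323 counts at 0 µM, 259, 257 and 379 at 200 µM, then 299, 212 and 356 at 1500 µM. Its log2 fold change was -0.89 ± 0.74 (SE, unadjusted p = 0.263, edgeR), and replicate 1 held nearly all of the difference.

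RNF169 as a whole had log2 ratios of 0.14, -0.28 and -0.04 within replicate numbers. With UBE2A.7 left out of the totals they were 0.23, -8.1e-05 and 0.02, so replicate 3 turned direction. Its guide RNF169.4 was lower than at 0 µM in every replicate number at both doses. It had 368, 177 and 120 counts in replicate 1 at 0, 200 and 1500 µM, 95, 60 and 74 in replicate 2 and 37, 25 and 15 in replicate 3. For 1500 against 0 µM it had -1.80 ± 1.15 (SE, unadjusted p = 0.160, edgeR). With the block it was -1.45 ± 0.56 (SE), with an unadjusted p of 0.0353 and an adjusted p of 0.999 (edgeR), the only member guide with a p under 0.05 in that fit, where 2.61% of all guides had one.

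At 200 against 0 µM, which asked the same of the lower dose with the same untreated libraries, no member gene or guide passed. RNF40 again had the highest value, 0.21 ± 0.51 (SE, interval -0.96 to 1.38). RNF8 had -0.25 ± 0.39, RNF169 -0.22 ± 0.37, RNF20 -0.04 ± 0.70 and RNF168 -0.04 ± 0.32 (SE). Each adjusted p rounded to 1.00 in edgeR with 3 libraries per group. Among all features 0% of genes and guides passed in either direction, and at an unadjusted p under 0.05 there were 0% of genes and 0.135% of guides, no member among them. With the block the shares were 5.37% of genes and 2.23% of guides, again with no member. In that fit RNF8 had -0.27 ± 0.18, RNF169 -0.15 ± 0.17, RNF168 -0.06 ± 0.17 and RNF20 0.18 ± 0.35 (SE), so RNF20 changed sign. The doses overlapped for all 5 genes, while 1.61% of genes lay apart in the higher and 0.537% in the lower direction.

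RNF40 at 200 µM rested on replicate 1, with log2 ratios of 1.45, 0.12 and -0.19 within replicate numbers 1, 2 and 3. The RNF40 sum in replicate 1 was 201 counts at 0 µM and 616 at 200 µM, and RNF40.4 (63 and 213 counts) and RNF40.8 (36 and 138 counts) made up much of the difference. With the block the log2 fold change was 0.39 ± 0.30 (SE, adjusted p = 0.811, edgeR). Without replicate 1 at 0 µM the unblocked value was -0.16, and with the block but without replicate 1 at both doses it was -0.04. Its guides were higher in 7 of 10 cases against 42.5% of all tested guides, with a median of 0.89, 5th from the highest of 1116 genes. RNF40.7 was again among the 7. RNF40.8, the guide of lowest p, had 1.20 ± 1.36 (SE, unadjusted p = 0.403, edgeR).

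RNF8 was lower at 200 µM in 3 of 3 replicate numbers, with log2 ratios of -0.52, -0.08 and -0.04, as were 8.68% of genes. RNF8.1 had the lowest p of its guides, with -0.84 ± 1.08 (SE, unadjusted p = 0.461, edgeR). Left without RNF8.1, the RNF8 sum was 178, 376 and 389 CPM at 0 µM and 307, 359 and 352 CPM at 200 µM, and its log2 fold change was 0.04 ± 0.38 (SE).

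The other 3 genes had no shared direction over replicate numbers at 200 µM. Their ratios were -0.28, 0.30 and -0.04 for RNF168, 0.44, -0.22 and -0.49 for RNF169, and -0.12, 1.16 and -0.27 for RNF20. RNF168.4 had 19, 37 and 46 counts at 0 µM, 67, 96 and 99 at 200 µM, then 82, 40 and 30 at 1500 µM. It was higher at 200 µM in 3 of 3 numbers, with 1.10 ± 0.91 (SE, unadjusted p = 0.261, edgeR), and was lower again at 1500 than at 200 µM in all 3. RNF20.3 had 5, 0 and 0 counts at 0 µM and 0, 12 and 25 at 200 µM, a log2 fold change of 2.23 ± 2.63 (SE, unadjusted p = 0.423, edgeR). This guide reached the count needed for testing only in libraries with drug, so the filter favoured a higher value there. RNF169.4 had -1.33 ± 1.18 (SE, unadjusted p = 0.295, edgeR). Of the 44 member guides 5 were higher in all 3 numbers and 4 were lower, against 15.5% and 8.46% of all tested guides.

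Between the 2 doses of drug, at 1500 against 200 µM, no member passed either. RNF40 had 0.27 ± 0.34, RNF169 0.23 ± 0.33, RNF20 0.16 ± 0.68, RNF8 0.03 ± 0.49 and RNF168 -0.20 ± 0.31 (SE), with adjusted p-values that rounded to 1.00 in edgeR with 3 libraries per group. The widest interval was that of RNF20, from -1.41 to 1.73, and the narrowest that of RNF168, from -0.92 to 0.52. Again 0% of all genes and guides passed, with an unadjusted p under 0.05 in 0.0895% of genes and 0.203% of guides and in no member. With the block the shares were 6.62% of genes and 1.95% of guides, again with no member. In that fit RNF40 had 0.25 ± 0.19, RNF169 0.17 ± 0.13, RNF8 -0.07 ± 0.19, RNF20 -0.09 ± 0.29 and RNF168 -0.18 ± 0.16 (SE).

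RNF168 was lower at 1500 than at 200 µM in 3 of 3 numbers, with log2 ratios of -0.18, -0.65 and -0.13. That was true of 32.8% of genes, and of 15.2% with UBE2A.7 left out of the totals (ratios -0.09, -0.37 and -0.09). None of the 5 genes was higher in all 3 numbers, against 2.95% of genes. RNF40 had -0.05, -0.04 and 0.39, which became 0.04, 0.25 and 0.42 without UBE2A.7, when 12.4% of genes were higher in all 3. Replicate 2 also turned direction for RNF8, from -0.10 to 0.18, and for RNF169, from -0.06 to 0.22, with UBE2A.7 left out of the totals. Among single guides RNF40.7 had the lowest unadjusted p, 0.256 in edgeR, with 2.98 ± 2.42 (SE). It passed the filter mainly through replicates 1 and 3 at 1500 µM (71 and 40 counts), so the filter favoured a higher value at that dose. RNF168.4 had -0.89 ± 0.87, RNF8.5 1.61 ± 2.33, RNF20.8 0.55 ± 1.15 and RNF169.9 -0.45 ± 0.70 (SE), with unadjusted p-values of 0.342, 0.509, 0.647 and 0.541.

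Other genes of histone ubiquitin signalling were taken from a list of 89 genes written from general knowledge, of which 53 were measured. None passed in edgeR without the block in any comparison, over gene sums. At 1500 against 0 µM the median log2 fold change was -0.03 over the 53 genes and -0.03 over all genes. At 200 against 0 µM the medians were -0.02 and -0.03, and at 1500 against 200 µM -0.04 and -0.01.

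By role, the 15 measured enzymes and regulators of the H2A damage mark had a median of 0.12 at 1500 and 0.16 at 200 against 0 µM, with 9 and 11 of them above 0. The 18 genes of H2B ubiquitination had -0.03 and 0.02, and the 6 readers of the mark and partners of BRCA1 had -0.01 and -0.04. The 13 Polycomb genes, which act with the H2A ubiquitin mark of gene silencing, had -0.22 and -0.29, with 11 and 12 of them below 0, and 0.05 at 1500 against 200 µM. CHEK2, a kinase and the only measured gene of the damage-signalling group in the list, had -0.00066 and -0.02. No gene of these groups passed without the block. The median gene lay at -0.03 in both comparisons with 0 µM, and the share of all genes on either side of 0 was not counted. From medians over guides, the H2A damage group had -0.04 and 0.04 at 1500 and 200 µM, against -0.08 and -0.09 over all genes. The Polycomb group had -0.16 and -0.27. With the block the H2A damage group had 0.06 and 0.10. The Polycomb group then had -0.025 and -0.21, against -0.022 and -0.08 over all genes.

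UBE2A, an E2 of RNF20 and RNF40, passed at 1500 against 0 µM with the block, with a log2 fold change of 4.05 ± 0.56 (SE) and an adjusted p of 0.00518, the 1 gene (0.0895% of genes) that did. Without the block it had 4.09 ± 1.16 (SE, adjusted p rounding to 1.00), and in DESeq2 without the block its adjusted p was 3.95e-07. Its sum went from 2698, 12312 and 4853 CPM at 0 µM to 62077, 186750 and 50848 CPM at 1500 µM. Nearly all of that difference lay in UBE2A.7. The other 9 UBE2A guides summed to 1144, 967 and 1179 CPM at 0 µM and 1329, 995 and 1176 CPM at 1500 µM. These sums use totals that include UBE2A.7, which held 6.07, 18.6 and 4.97% of counts in replicates 1, 2 and 3 at 1500 µM. Leaving it out of the totals would raise them more at 1500 than at 0 µM, so they do not show that the other guides were unchanged.

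UBE2B, the other E2 of the heterodimer, had 204.5, 1638 and 211 CPM at 0 µM and 354, 1009 and 328 CPM at 1500 µM, a log2 fold change of -0.12 ± 0.86 (SE, adjusted p rounding to 1.00, edgeR). UBE2N, the E2 of RNF8, was scarcer than any of the 5 ligases in replicates 2 and 3 at 0 µM, with 164, 29.0 and 42.1 CPM. It had 244, 52.0 and 72.3 CPM at 200 µM and 162, 38.1 and 68.7 CPM at 1500 µM. Its log2 fold change was 0.54 ± 0.89 at 200 and 0.23 ± 0.86 (SE) at 1500 against 0 µM, and neither passed.

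At 1500 against 0 µM TRIP12, a ligase that limits RNF168 levels, had 0.55 ± 0.45 (SE), with 7 of 8 guides higher. With the block it had 0.48 ± 0.20 (SE, unadjusted p = 0.0319, adjusted p = 0.736, edgeR). RNF126, a RING ligase, had -0.48 ± 0.29 (SE), with 9 of 10 guides lower. USP22, which removes ubiquitin from H2B, had -0.50 ± 0.38 (SE), with 8 of 9 lower. With the block RNF126 had -0.47 ± 0.16 (SE, unadjusted p = 0.00895, adjusted p = 0.556, edgeR). USP22 had -0.44 ± 0.17 in that fit (SE, unadjusted p = 0.0238, adjusted p = 0.656, edgeR), so both had a lower p than TRIP12. At 200 against 0 µM the list genes of lowest p were RNF111, a SUMO-targeted ligase, with 0.38 ± 0.30 and 10 of 10 guides higher, and ATXN7L3, a subunit of the deubiquitinase module that removes ubiquitin from H2B, with 0.395 ± 0.380 (SE). On the lower side they were RNF126, with -0.44 ± 0.31, and CBX8, a Polycomb subunit, with -0.53 ± 0.45 (SE). With the block RNF111 and RNF126 had unadjusted p-values of 0.0349 and 0.00998 there (adjusted p = 0.811 each, edgeR). ATXN7L3 had 0.42 ± 0.18 in that fit (SE, unadjusted p = 0.0466, edgeR), and it did not pass either. At 1500 against 200 µM the list genes of lowest p on the higher side were UBE2A, with 3.12 ± 1.14, and BRE, with 0.27 ± 0.28 (SE). BRE is a subunit of the BRCA1-A complex. ATXN7L3 had -0.44 ± 0.39 and USP22, the catalytic subunit of its module, -0.31 ± 0.32 (SE) on the lower side. With the block BRE had 0.28 ± 0.11 (SE, unadjusted p = 0.0245, adjusted p = 0.665, edgeR) at 1500 against 200 µM. USP22 had -0.29 ± 0.11 there (SE, unadjusted p = 0.0187, adjusted p = 0.640, edgeR). None of the list genes named here passed in edgeR without the block, where their adjusted p-values rounded to 1.00.

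Over the 9 libraries the pattern of each ligase was matched closely by that of other genes, as Pearson's r of log2(summed CPM + 1). The highest r was 0.97 for RNF8 with SHKBP1 and 0.95 with TRIM17, 0.92 for RNF168 with EGR2 and 0.90 with TRAF3, and 0.98 for RNF169 with KLHDC10 and 0.96 with NSMCE1. RNF20 was closest to HSPA5 and KBTBD13 (0.95 each), and RNF40 to PSMB4 and GID8 (0.96 each). PSMB4 was at 0 CPM in replicate 1 at 0 µM, the library where RNF40 was lowest. The median over all genes of their own highest r was 0.96, so likeness of this size was usual, and the libraries share replicate numbers. Among the ligases r was 0.84 for RNF169 with RNF40, 0.73 for RNF8 with RNF168, and 0.36 for the partners RNF20 and RNF40.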

How the data were processed

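Values were raw sgRNA counts of 9 libraries in 1 table deposited by the authors. Per the submitters' processing notes, cutadapt 1.18 and MAGeCK 0.5.8 were used and hg19 was named, without settings. Guide sequences were not used here. The members and lists were chosen with earlier results of these data known.

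Guides reaching 10 counts in 3 or more of the 9 libraries were tested for each pair of doses with edgeR 4.0.16 (TMM, robust quasi-likelihood fit, 6 libraries, no block), and so were counts summed per gene (all 1117 genes). The Benjamini-Hochberg adjustment ran over all tested guides or genes, with a threshold of 0.05. Each SE was derived from the fold change and its F statistic. CPM uses library totals. R 4.3.3 and DESeq2 1.42.0 were used. The edgeR tests were checked on simulated data with large changes and no effect of replicate number. That check does not show how they perform where replicate number takes as much of the spread as here.

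Deviations from dose means correlated at 0.66 to 0.78 in the 9 pairs of libraries with the same replicate number. All exceeded 0.1, the limit set for treating the numbers as pairs, which thus rests on the data and not on the labels.

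Named were all members, the most abundant guide of each, the guide of lowest p per gene and comparison, list genes past the threshold with or without the block (otherwise the 2 of lowest p per direction), UBE2A, UBE2B and UBE2N, and the 2 genes most like each member. Other guides were chosen after their values were seen.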

Additional observations from a re-analysis of the deposited data

How the results depend on the processing

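No member gene or guide passed under any setting run: the replicate block, DESeq2, RLE factors, no filter or at least 50 counts, all 9 libraries, UBE2A.7 left out, or any library or replicate number left out. Signs of values near 0 changed. With the replicate block RNF20 had 0.18 at 200 against 0 µM and -0.093 at 1500 against 200 µM, and RNF8 had -0.067 at 1500 against 200 µM. Without the most abundant guide RNF8 had 0.043 at 200 against 0 µM and -0.11 at 1500 against 200 µM, and RNF20 0.28 at 200 against 0 µM. As the median of guides RNF169 had -0.086 at 1500 against 0 µM and -0.0037 at 1500 against 200 µM. RNF40 kept its sign at 200 against 0 µM, but had 0.89 as the median of guides against 0.21 for the sum.

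With the block and a replicate number left out, a choice made after seeing the data, 1500 against 0 µM gave RNF169 -0.016 and RNF8 0.092 without number 1, and RNF20 -0.25 without number 2. At 200 against 0 µM, RNF168 had 0.13, RNF20 0.41 and RNF40 -0.039 without number 1, and RNF169 0.034 and RNF20 0.44 without number 3. At 1500 against 200 µM, RNF20 had -0.0040 and RNF8 -0.20 without number 2, and -0.43 and -0.18 without number 3.

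Of the list, 1 gene (UBE2A) passed with the block at 1500 against 0 µM and in DESeq2 at 1500 against 0 and against 200 µM. With the block, 2 passed without number 1 (UBE2A and EED, among 11 of 1117 genes, 0.985%) and 1 without number 3 (UBE2A, among 2 genes, 0.179%) at 1500 against 0 µM. At 200 against 0 µM 2 passed without number 1 (CBX8 and SUZ12, among 17 genes, 1.52%).

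With a single library left out and no block, log2 fold changes at 1500 against 0 µM ranged from -0.74 to 0.12 for RNF8, -0.37 to -0.16 for RNF168, -0.27 to 0.31 for RNF169, -0.96 to 0.90 for RNF20 and 0.11 to 0.90 for RNF40. At 200 against 0 µM the ranges were -0.61 to 0.040, -0.30 to 0.095, -0.48 to 0.076, -0.51 to 0.74 and -0.16 to 0.62 in the same order. At 1500 against 200 µM they were -0.51 to 0.38, -0.35 to 0.054, -0.063 to 0.47, -0.93 to 0.65 and 0.054 to 0.44. The cause of these changes was not tested. RNF20 and RNF8 had the most values under 10 counts, where depth limits a guide's fold change.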
